A study of Mus musculus with 18 samples.

Results

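The genes described are 9 immediate early genes of the mouse: Egr1, Egr2 and Egr3, Nr4a1, Nr4a2 and Nr4a3, Ier2, Ier3, and Myc. They were taken as every probe set that the array annotation assigns to 1 of these gene symbols alone, which gave 12 probe sets for the 9 genes, out of 20380 single-gene probe sets for 12393 genes. Their RNA was measured in 18 samples of aorta from male C57Bl/6 mice on 1-colour Affymetrix arrays. All mice, those behind the vehicle samples included, had first received spironolactone, an antagonist of the mineralocorticoid receptor, at 20 mg/kg/day for 5 days from a pellet under the skin. The aortas were then kept in organ culture in DMEM, with 100 nM aldosterone or with vehicle, for 2, 4 or 8 h. Each of the 6 groups, aldosterone 2 h, 4 h and 8 h and vehicle 2 h, 4 h and 8 h, held 3 pools of 3 aortas each. The series design gives suppression of basal receptor-dependent expression as the purpose of the spironolactone. Tissue taken straight from the animal was not analysed here, so no value below is set against a level before culture.

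Immediate early genes are transcribed soon after a stimulus reaches a cell, without a need for new protein, because the factors that switch them on are already present. Serum response factor with its partners, which bind CArG boxes, and CREB, which binds cyclic AMP response elements, are the best known of these factors, and most of the RNAs are short-lived. In the artery wall Egr1 is known as a gene induced by injury, stretch and growth factors. Egr1, Egr2 and Egr3 encode zinc finger transcription factors, Nr4a1 (Nur77), Nr4a2 (Nurr1) and Nr4a3 (Nor1) encode orphan nuclear receptors, and Myc encodes a transcription factor that drives cell growth. Ier2 encodes a small nuclear protein, and Ier3 encodes a stress-induced protein with roles in cell survival.

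Promoters are given for members chosen by their change with time: they belong to members whose RNA moved most with time in culture, Nr4a1, Nr4a2 and Egr2, and to Ier3, whose RNA moved the other way. Each is the RefSeq sequence from 250 bases before to 50 bases after the annotated start, in build GRCm38.p6, written in the direction of transcription. Capitals mark CArG boxes and the CRE core TGACG, read on either strand, so that CGTCA is the core on the opposite strand. The Nr4a1 window is chr15:101266596-101266895 on the plus strand and the Nr4a2 window is chr2:57123954-57124253 on the minus strand. The Egr2 window, 1 of 5 for starts of that gene, is chr10:67537619-67537918 on the plus strand, and the Ier3 window is chr17:35821463-35821762 on the plus strand.
Nr4a1: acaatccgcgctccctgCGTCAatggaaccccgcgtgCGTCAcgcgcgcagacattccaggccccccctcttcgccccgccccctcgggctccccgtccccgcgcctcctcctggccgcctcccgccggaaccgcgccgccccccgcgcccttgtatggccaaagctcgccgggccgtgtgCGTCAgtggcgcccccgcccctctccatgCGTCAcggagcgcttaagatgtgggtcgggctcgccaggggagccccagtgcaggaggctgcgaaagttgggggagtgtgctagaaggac
Nr4a2: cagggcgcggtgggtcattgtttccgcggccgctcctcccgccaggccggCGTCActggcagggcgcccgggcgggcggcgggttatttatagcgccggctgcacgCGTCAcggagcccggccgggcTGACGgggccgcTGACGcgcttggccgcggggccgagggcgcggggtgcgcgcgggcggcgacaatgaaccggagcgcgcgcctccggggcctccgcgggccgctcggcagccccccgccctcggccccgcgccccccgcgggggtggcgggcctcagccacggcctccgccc
Egr2: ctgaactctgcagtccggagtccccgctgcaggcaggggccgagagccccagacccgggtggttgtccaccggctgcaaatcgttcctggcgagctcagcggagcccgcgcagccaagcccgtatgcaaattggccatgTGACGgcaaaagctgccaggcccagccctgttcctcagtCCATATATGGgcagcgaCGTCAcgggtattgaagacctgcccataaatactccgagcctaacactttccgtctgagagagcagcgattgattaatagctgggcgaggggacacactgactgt
Ier3: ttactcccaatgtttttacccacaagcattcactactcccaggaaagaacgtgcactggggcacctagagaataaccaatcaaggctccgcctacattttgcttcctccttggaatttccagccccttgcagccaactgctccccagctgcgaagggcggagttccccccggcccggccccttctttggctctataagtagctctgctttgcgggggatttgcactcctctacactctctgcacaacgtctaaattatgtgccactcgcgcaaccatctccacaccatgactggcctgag

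Promoter windows of 5 members, Egr2, Nr4a1, Nr4a2, Nr4a3 and Ier3, were searched on both strands for the motifs named here. Egr2 has 5 windows, for its 5 annotated starts, and the others have 1 each. The CRE core TGACG was found in at least 1 window of 4 of the 5 members, all but Ier3. Counted by window it was in 6 of 9, 3 of them overlapping Egr2 windows that include the one printed, and in 20.8% of all 32851 promoter windows of the same length. Nr4a1, Nr4a2 and Nr4a3 held 4 matches each, and 0.231% of all windows held at least 4. The printed Egr2 window held 2 matches, and between them, 72 bases before the start, a CArG box, a motif present in 1.63% of all windows. The EGR motif GCGNGGGCG was present in the windows of Nr4a1, 60 bases before the start, and Nr4a2, 74 bases before it, and in 5.55% of all windows. The letters AGAACA, part of the element bound by steroid receptors, were in none of the 5 members' windows, against 19% of all windows. The full CRE TGACGTCA and the Nr4a site AAAGGTCA were also in none of the 5, against 1.79% and 1.51% of all windows. A match is a run of letters and was not measured as a bound site. Egr1, Egr3, Ier2 and Myc were not searched.

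The deposited values were log2 expression estimates, and 7092 genes had a probe set above a log2 value of 4 in at least 3 samples and were tested. Of the 9 members, 7 were above 4 in all 18 samples. Egr3 (1.19 to 1.23 over the 18 samples) and Nr4a3 (2.50 to 3.11 on one probe set, 2.06 to 2.32 on the other) were below 4 in every sample, so no difference is given for either. The median over all probe sets was 4.42 in vehicle 2 h replicate 1 and between 4.00 and 4.09 in the other 17 samples. In that sample 908 of the 7092 genes lay over 1 log2 unit from the mean of the other 2 pools of its group. Some of the members' values that it moves are also given without it, as are counts of members and of gene lists over time. Cell type markers and single genes of the lists are given with all pools only. Smooth muscle markers were present as the label aorta implies (8 of 8, led by Acta2), beside endothelial (7 of 8), fibroblast (6 of 6) and fat cell markers (4 of 5, led by Fabp4). The 4 corticosteroid targets Fkbp5, Zbtb16, Per1 and Sgk1 were higher with aldosterone at 4 h and at 8 h (4 of 4 each, adjusted p under 0.05 in limma), and 0 of 4 passed at 2 h.

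Nr4a1 had the largest fall of the 7 measured members. In aldosterone cultures its log2 values were 11.96, 11.76 and 11.85 at 2 h, 9.55, 9.70 and 9.20 at 4 h, and 6.79, 6.68 and 6.67 at 8 h. In vehicle cultures they were 11.35, 12.02 and 11.81 at 2 h, 9.42, 9.74 and 9.29 at 4 h, and 6.57, 6.58 and 6.56 at 8 h. Every 8 h pool lay below every 4 h pool, and every 4 h pool below every 2 h pool, in both treatments. At 8 h against 2 h the level was 35.2-fold lower with aldosterone (log2 difference -5.14 ± 0.16, SE; adjusted p = 2.44e-13 in limma) and 35.8-fold lower with vehicle (-5.16 ± 0.16; adjusted p = 1.41e-13). These were the 3rd lowest and the 7th lowest log2 differences of the 7092 genes. The fall continued after 4 h, with log2 differences at 8 h against 4 h of -2.77 with aldosterone and -2.92 with vehicle (adjusted p = 3e-09 and 2.38e-09).

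Nr4a2 fell with the same order of times and a smaller size. Its main probe set gave 11.22, 11.36 and 11.01 at 2 h, 8.73, 8.80 and 8.65 at 4 h, and 7.30, 7.27 and 7.53 at 8 h with aldosterone. With vehicle it gave 11.59, 11.53 and 10.95 at 2 h, 9.18, 9.04 and 8.999 at 4 h, and 7.52, 7.52 and 7.58 at 8 h. Again the 3 times did not overlap within either treatment. The level at 8 h was 14.2-fold lower than at 2 h with aldosterone (-3.83 ± 0.15, adjusted p = 1.74e-12) and 14.1-fold lower with vehicle (-3.82 ± 0.15, adjusted p = 1.47e-12). Of the whole log2 fall, 64.4% with aldosterone and 59.9% with vehicle had taken place by 4 h, against 46.2% and 43.5% for Nr4a1. A second Nr4a2 probe set gave log2 differences of -3.53 with aldosterone and -3.38 with vehicle at 8 h against 2 h (adjusted p = 9.8e-10 and 1.48e-09). Without vehicle 2 h replicate 1 the vehicle differences at 8 h against 2 h were -5.35 for Nr4a1 and -3.70 for Nr4a2.

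**Figure D1:**
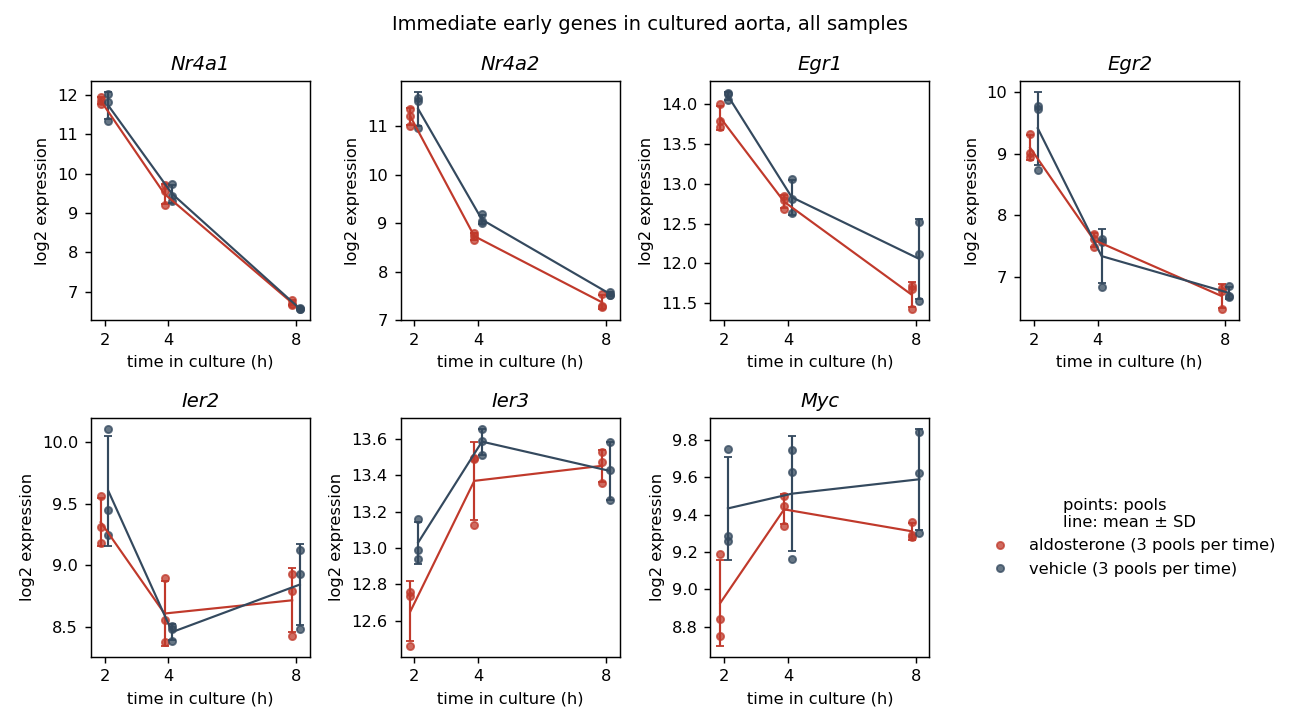
Log2 expression of the 7 measured members against hours in culture, with 1 panel per gene and its own vertical range; points are single pools, lines join group means and bars are ± 1 SD (n = 3). The means of Nr4a1, Nr4a2, Egr1 and Egr2 are lower at each later time in both treatments, the Egr2 step from 4 to 8 h passing the test with aldosterone only; Ier2 falls by 4 h, and Ier3 lies higher at 4 h than at 2 h in both treatments.

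Egr1 fell less steeply. With aldosterone its values were 13.71, 13.79 and 14.00 at 2 h, 12.79, 12.84 and 12.69 at 4 h, and 11.42, 11.71 and 11.68 at 8 h. With vehicle they were 14.05, 14.13 and 14.13 at 2 h, 13.06, 12.80 and 12.63 at 4 h, and 11.53, 12.12 and 12.52 at 8 h. The 3 times did not overlap in either treatment, and the vehicle 8 h pools were the most spread (SD 0.50). The 8 h level was 4.68-fold lower than the 2 h level with aldosterone (-2.23 ± 0.18, adjusted p = 1.42e-08) and 4.14-fold lower with vehicle (-2.05 ± 0.18, adjusted p = 3.56e-08). Both steps passed the test in both treatments. At 4 h against 2 h the log2 difference was -1.06 with aldosterone and -1.27 with vehicle (adjusted p = 0.00022 and 3.67e-05), and at 8 h against 4 h it was -1.17 and -0.78 (adjusted p = 7.37e-05 and 0.00244).

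Egr2 was lower at 4 h than at 2 h in both treatments. Its main probe set gave 8.95, 9.01 and 9.32 at 2 h, 7.70, 7.61 and 7.49 at 4 h, and 6.83, 6.77 and 6.48 at 8 h with aldosterone. With vehicle it gave 8.73, 9.73 and 9.77 at 2 h, 7.57, 7.62 and 6.83 at 4 h, and 6.68, 6.85 and 6.70 at 8 h. The 2 h pools lay above all later pools, but 1 vehicle 4 h pool (6.83) lay within the vehicle 8 h range. At 4 h against 2 h the log2 difference was -1.49 ± 0.24 with aldosterone (adjusted p = 0.00015) and -2.07 ± 0.24 with vehicle (adjusted p = 6.06e-06). At 8 h against 4 h it was -0.91 ± 0.24 with aldosterone (adjusted p = 0.00683) and -0.60 ± 0.24 with vehicle, which did not pass (adjusted p = 0.0607). On the second Egr2 probe set neither 8 h against 4 h difference passed (-0.53 with aldosterone and -0.35 with vehicle; adjusted p = 0.153 and 0.356), while the 4 h against 2 h differences did (-1.61 and -1.79). Vehicle 2 h replicate 1 had the lowest Egr2 value of its group on both probe sets (8.73 and 7.47), and without it the main probe set differed by -2.41 between vehicle 4 h and 2 h. Without it, too, the vehicle 8 h against 4 h difference passed (adjusted p = 0.00885).

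Ier2 was lower at 4 h and did not fall further. Its values with aldosterone were 9.31, 9.18 and 9.56 at 2 h, 8.55, 8.90 and 8.38 at 4 h, and 8.43, 8.79 and 8.93 at 8 h. With vehicle they were 10.11, 9.25 and 9.45 at 2 h, 8.51, 8.48 and 8.39 at 4 h, and 9.12, 8.93 and 8.48 at 8 h. The 2 h pools lay above all later pools of their treatment, and the 4 h and 8 h pools overlapped. At 4 h against 2 h the log2 difference was -0.74 ± 0.21 with aldosterone (adjusted p = 0.011) and -1.14 ± 0.21 with vehicle (adjusted p = 0.000468), the second -0.89 without vehicle 2 h replicate 1. Leaving out 1 aldosterone pool, replicate 3 at 2 h or replicate 3 at 4 h, ended the call with aldosterone (adjusted p = 0.0524 and 0.0565). At 8 h against 2 h it was -0.63 ± 0.21 with aldosterone (adjusted p = 0.0168) and -0.76 ± 0.21 with vehicle (adjusted p = 0.00538), the second -0.51 without vehicle 2 h replicate 1. The aldosterone call at 8 h against 2 h ended without aldosterone 2 h replicate 3 or aldosterone 8 h replicate 1 (adjusted p = 0.076 and 0.0895).

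Ier3 moved the other way. It had 12.74, 12.46 and 12.76 at 2 h, 13.50, 13.49 and 13.12 at 4 h, and 13.47, 13.36 and 13.53 at 8 h with aldosterone. With vehicle it had 13.16, 12.94 and 12.99 at 2 h, 13.51, 13.59 and 13.65 at 4 h, and 13.58, 13.43 and 13.26 at 8 h. All 2 h pools lay below the later pools of their treatment, while the 4 h and 8 h pools overlapped. At 4 h against 2 h Ier3 rose by 0.72 ± 0.12 log2 units with aldosterone (adjusted p = 0.000173) and by 0.55 ± 0.12 with vehicle (adjusted p = 0.00136). At 8 h it was still higher than at 2 h, by 0.80 with aldosterone and 0.39 with vehicle (adjusted p = 1.74e-05 and 0.00824).

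Myc stayed within a narrow range. With aldosterone it had 8.75, 8.84 and 9.19 at 2 h, 9.45, 9.50 and 9.34 at 4 h, and 9.29, 9.28 and 9.36 at 8 h. With vehicle it had 9.75, 9.29 and 9.26 at 2 h, 9.63, 9.74 and 9.16 at 4 h, and 9.30, 9.62 and 9.84 at 8 h. The aldosterone 2 h pools lay below the later aldosterone pools, and the vehicle pools of all 3 times overlapped. At 4 h against 2 h the log2 difference was 0.50 ± 0.17 with aldosterone (adjusted p = 0.0307) and 0.08 ± 0.17 with vehicle (adjusted p = 0.748). The aldosterone call was lost when any of 5 of the 6 aldosterone pools compared was left out (replicates 1 and 2 at 2 h and all 3 at 4 h; adjusted p 0.0502 to 0.12). At 8 h against 2 h it was 0.38 ± 0.17 with aldosterone (adjusted p = 0.0701) and 0.16 ± 0.17 with vehicle (adjusted p = 0.458). The first of these passed without vehicle 2 h replicate 1 (adjusted p = 0.0346) and without aldosterone 2 h replicate 3 or vehicle 4 h replicate 3 (0.0312 and 0.0474). It also passed with array weights (adjusted p = 0.00955) and with only the groups compared in the model (0.0228), and in none of the other alternatives. The vehicle difference at 8 h against 2 h was 0.32 without vehicle 2 h replicate 1, which held the highest Myc value of its group, and was called in no alternative. Whether the 2 treatments differed in the course of Myc over time was tested directly, and no difference was called (limma F test, adjusted p = 0.961).

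**Figure D2:**
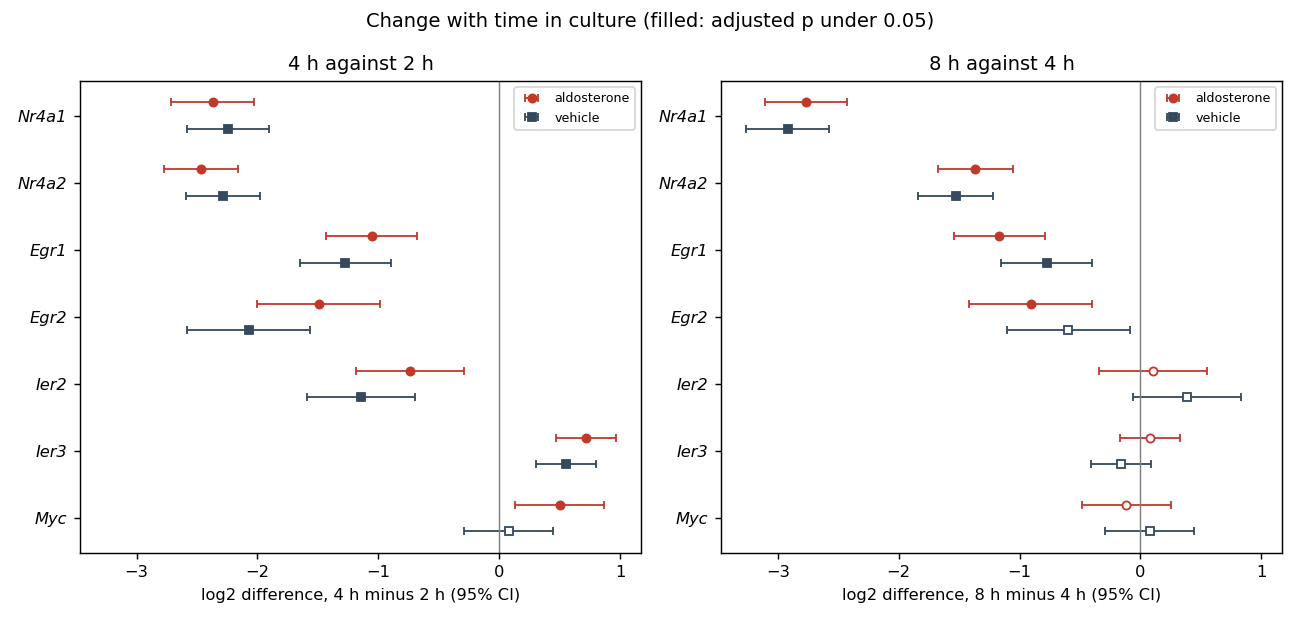
Log2 differences of the 7 members between successive times, aldosterone above vehicle for each gene, with 95% confidence intervals from limma; filled symbols passed at adjusted p under 0.05. Nr4a1 has the lowest difference in the right panel in both treatments (-2.77 and -2.92), while Ier2, Ier3 and Myc are open symbols there.

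Between 2 and 4 h, 5 of the 7 members were lower and 2 higher with aldosterone, where 21.3% of all genes were lower and 17.3% higher. With vehicle 5 were lower and 1 was higher, where 25.6% of all genes were lower and 14.6% higher. Between 4 and 8 h, 4 members were lower with aldosterone (16.6% of all genes) and 3 with vehicle (17% of all genes), and none was called higher, where 21% of all genes were higher with aldosterone and 20.7% with vehicle. Without vehicle 2 h replicate 1 the vehicle counts were 6 called at 4 h against 2 h (Egr1 -1.30, Ier3 0.62), 4 at 8 h against 4 h and 6 at 8 h against 2 h. With aldosterone, Myc was then also called higher at 8 h against 2 h, as given above. The shares of all genes called without that pool are not given here. With all pools, 5 members were lower and 1 higher over 2 to 8 h in each treatment. Of all genes, 27.3% were lower and 29.2% higher with aldosterone, and 31.9% and 26.6% with vehicle. The median log2 difference at 8 h against 2 h was -2.23 over the 7 members and 0.02 over all genes with aldosterone, and -2.05 and -0.07 with vehicle. The steps 4 h against 2 h and 8 h against 4 h share their 4 h pools, and each shares pools with 8 h against 2 h, whereas the aldosterone and vehicle courses share none. Most markers of the wall's cells were lower over the same hours. At 8 h against 2 h, 6 of 8 smooth muscle markers were lower and 0 higher with aldosterone and 6 were lower and 1 higher with vehicle, and all 6 fibroblast markers were lower in both. Of 7 endothelial markers 4 were lower in each treatment and 1 was higher with aldosterone. Of 8 macrophage and monocyte markers 6 were lower and 1 higher in each treatment, with median log2 differences of -1.55 with aldosterone and -2.12 with vehicle, and 3 and 4 of 4 fat cell markers were lower. The summed smooth muscle markers were 15.11 to 15.36 at 8 h and 16.27 to 16.35 at 2 h with aldosterone, and 15.23 to 15.51 and 15.87 to 16.22 with vehicle (log2). The fibroblast sum was 12.96 to 13.22 at 8 h and 13.90 to 14.07 at 2 h with aldosterone, and 12.74 to 13.11 and 13.82 to 14.41 with vehicle. The macrophage and monocyte sum was 9.72 to 9.92 at 8 h and 10.80 to 11.04 at 2 h with aldosterone, and 9.45 to 10.06 and 10.67 to 11.58 with vehicle. The endothelial sum was 9.37 to 10.15 at 8 h and 10.21 to 10.64 at 2 h with aldosterone, and 9.57 to 9.75 and 10.31 to 11.24 with vehicle. In each of these 4 sums the 8 h pools lay below the 2 h pools of their treatment without overlap. The part of these shifts in the members' falls was not tested, and in whole tissue fewer cells of a type and less RNA per cell cannot be told apart.

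Aldosterone against vehicle addresses whether the hormone altered these genes, and no member passed at any time. At 2 h, 0 of 7 were called (0.0705% of all genes were), at 4 h 0 of 7 (0.24%), at 8 h 0 of 7 (1%), and for the mean of the 3 times 0 of 7 (1.1%). At an unadjusted p under 0.05 the counts were 2 at 2 h (Ier3 and Myc), 1 at 4 h (Nr4a2), 1 at 8 h (Egr1) and 4 for the mean of the times (Egr1, Nr4a2, Ier3 and Myc), each lower with aldosterone. The shares of all genes at that level were 11%, 3.76%, 6.26% and 8.43% in the same order. The F test of whether the effect of aldosterone differed between times called 0 of 7 members (adjusted p 0.892 to 0.996, none at an unadjusted p under 0.05) and 0.155% of all genes (5.92% at an unadjusted p under 0.05).

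At 2 h the values of Myc, Ier3 and Egr1 did not overlap between treatments, and all aldosterone pools were the lower ones. Groups that do not overlap with aldosterone lower were found for 10.5% of all genes at this time. Myc averaged 8.93 ± 0.23 with aldosterone and 9.43 ± 0.28 with vehicle (SD, n = 3 each), a log2 difference of -0.51 with a 95% interval of -0.87 to -0.14 (adjusted p = 0.297 in limma). Ier3 averaged 12.65 ± 0.17 and 13.03 ± 0.12, a difference of -0.38 (interval -0.62 to -0.13, adjusted p = 0.26). Egr1 averaged 13.83 ± 0.15 and 14.10 ± 0.05, a difference of -0.27 (interval -0.65 to 0.10, adjusted p = 0.585). Without vehicle 2 h replicate 1, which held the highest Myc and Ier3 values of its group, the differences were -0.35 for Myc and -0.31 for Ier3, and that of Egr2 was -0.65 against -0.32 with all pools (adjusted p = 0.14 and 0.647). For Nr4a1 the difference was 0.13 with all pools and -0.06 without it, so that its sign rests on that pool. For Ier2 the difference was -0.25 with all pools and -0.0007 without that pool. Summed neutrophil markers (2 of 4 measured) were 4.49 to 4.90 with aldosterone and 5.85 to 6.76 with vehicle at 2 h. The means of these genes over all samples, 4.08 and 4.42, were near the filter value of 4, and 0 of 2 were called. The smooth muscle sum did not overlap either, at 16.27 to 16.35 with aldosterone and 15.87 to 16.22 with vehicle. Nor did the 1 lymphocyte marker measured (3.80 to 3.93 and 3.98 to 4.46). The part of these markers in the members' differences was not tested.

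At 4 h Nr4a2 and Ier3 were the members whose groups did not overlap, lower with aldosterone, as were 4.77% of all genes. Nr4a2 averaged 8.73 ± 0.07 with aldosterone and 9.07 ± 0.09 with vehicle on its main probe set (log2 difference -0.34, interval -0.65 to -0.03, adjusted p = 0.9995). Its second probe set gave -0.02 (interval -0.49 to 0.45). At 8 h the Nr4a1 pools were higher with aldosterone without overlap, as were 9.11% of all genes (6.71 ± 0.06 and 6.57 ± 0.01, difference 0.15, interval -0.19 to 0.49, adjusted p = 1). Egr1 averaged 11.60 ± 0.16 with aldosterone and 12.05 ± 0.50 with vehicle at 8 h, and the groups overlapped (difference -0.45, interval -0.82 to -0.07, adjusted p = 0.565). That value rests on single vehicle pools: it was -0.71 and passed without vehicle 8 h replicate 1 (adjusted p = 0.0247), and it was -0.22 without vehicle 8 h replicate 3. Summed fat cell markers at 8 h did not overlap, at 13.87 to 14.13 with aldosterone and 13.45 to 13.57 with vehicle, and 0 of 4 were called. Of 8 macrophage and monocyte markers 1 was called higher with aldosterone at 8 h and 0 lower, where 1% of all genes were called. The part of these 8 h shifts in the members' differences was not tested. Averaged over the 3 times the differences lay between -0.29 (Myc, interval -0.50 to -0.08, adjusted p = 0.313) and 0.09 (Nr4a1, interval -0.11 to 0.29), and 6 of the 7 were below 0 with all pools. That count rests on single pools. Ier2 went from -0.08 to 0.007 without vehicle 2 h replicate 1, and Egr2 from -0.03 to 0.03 without vehicle 2 h replicate 3. With all pools the median over the 7 was -0.19, and that over all genes was -0.01.

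**Figure D3:**
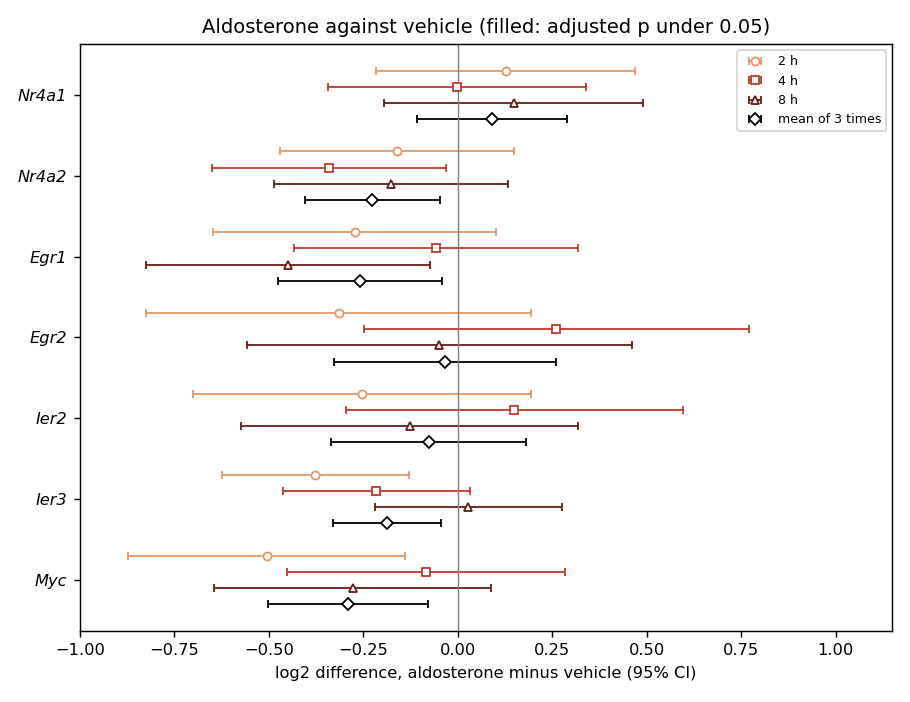
Log2 difference, aldosterone minus vehicle, for the 7 members at 2, 4 and 8 h and for the mean of the 3 times, with 95% confidence intervals from limma; a filled symbol would mark adjusted p under 0.05. All symbols are open, and the lowest point is Myc at 2 h (-0.51).

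The other immediate early genes, a list chosen with earlier results of these data known, were measured for 21 of 25. At 8 h against 2 h, 17 were lower and 1 higher with aldosterone, and 16 lower and 1 higher with vehicle (18 and 17 lower without vehicle 2 h replicate 1). Of all genes, 27.3% were lower and 29.2% higher with aldosterone, and 31.9% and 26.6% with vehicle. The 4 listed genes with the smallest p in both treatments were Fosb and Fos, which encode AP-1 subunits, Atf3, a stress-induced transcription factor, and Ccn1 (Cyr61), a matrix signalling protein. The 8 h means of Fosb lay under the filter value of 4, and with those set to 4 Fosb was at least 191-fold lower with aldosterone and at least 239-fold lower with vehicle (log2 differences of -7.58 and -7.90). The differences were -5.01 and -5.56 for Fos, -3.71 and -4.03 for Atf3, and -3.47 and -4.30 for Ccn1, each with aldosterone and then with vehicle. The 1 gene called higher was the AP-1 gene Fosl1, named after its values were seen, with 10.18 at 8 h and 7.73 at 2 h with aldosterone and 10.31 and 8.29 with vehicle. None of the 21 was called for aldosterone against vehicle at 2, 4 or 8 h or for the mean of the times, and without vehicle 2 h replicate 1 the mean of the times called 1 lower. Their median log2 difference for aldosterone against vehicle was -0.30 at 2 h, 0.08 at 4 h and 0.14 at 8 h. For the mean of the times it was -0.05. The medians over all genes were -0.07, 0.006, 0.01 and -0.01 in the same order.

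**Figure D4:**
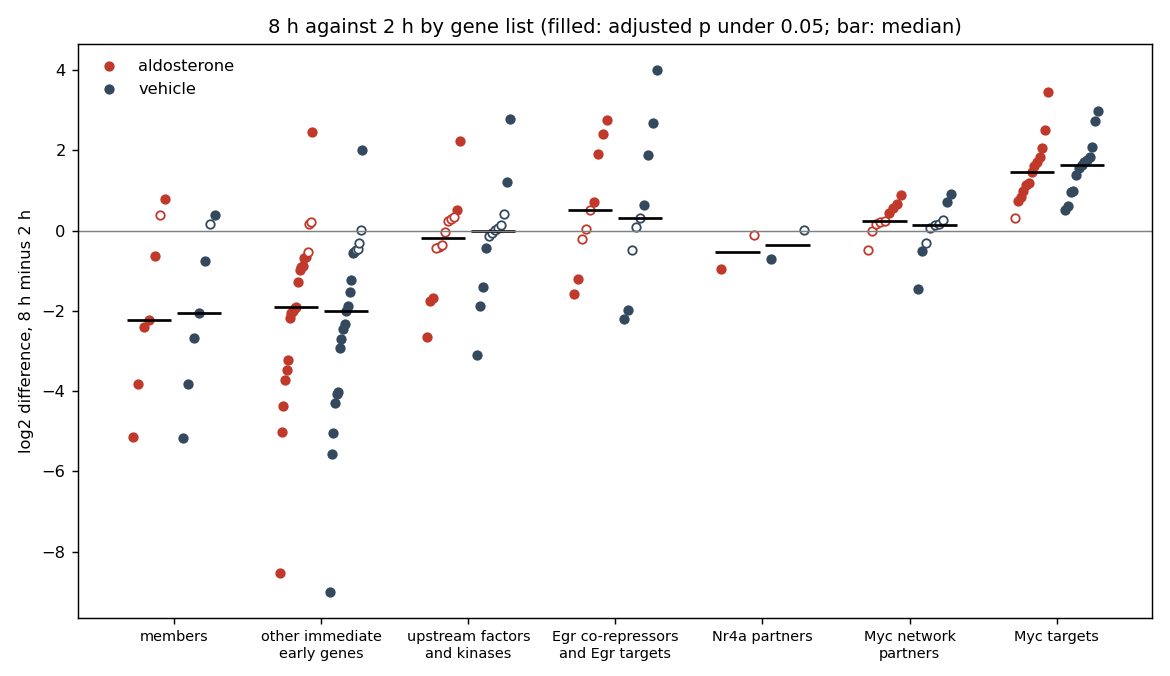
Log2 difference at 8 h against 2 h for the 7 members and for each measured gene of 6 related lists, aldosterone left of vehicle; filled points passed at adjusted p under 0.05 and bars are list medians. The lowest point, Fosb, is drawn at its fitted difference although its 8 h means are under 4. The members' medians are -2.23 and -2.05, near those of the other immediate early genes (-1.90 and -2.00), and the Myc targets lie above 0.

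Factors that act upstream of the members went in both directions. Of 12 measured among 19 listed, 4 were lower and 2 higher at 8 h against 2 h in each treatment, where 27.3% of all genes were lower and 29.2% higher with aldosterone and 31.9% and 26.6% with vehicle. Without vehicle 2 h replicate 1 the counts were 5 lower and 2 higher with aldosterone and 4 lower and 3 higher with vehicle. Srf, the serum response factor itself, was lower (-1.75 with aldosterone and -1.41 with vehicle), as were Mef2c (-2.65 and -3.10) and Mef2d (-1.68 and -1.87), MADS-box factors like Srf. Map2k1, the kinase MEK1 that activates ERK, was higher (2.24 and 2.78). Of the Egr co-repressors and known vascular Egr targets, 9 of 11 were measured, and 4 were higher and 2 lower in each treatment (4 and 3 with vehicle when vehicle 2 h replicate 1 was left out). Cd44 was higher (1.91 with aldosterone and 1.89 with vehicle), and so was Fgf2, whose 2 h means lay under 4 (at least 3.79-fold with aldosterone and 4.91-fold with vehicle, with values under 4 set to 4). Tissue factor F3 and the adhesion molecule Icam1 were lower (-1.57 and -1.21 with aldosterone, -2.20 and -1.98 with vehicle). The heterodimer partner Rxra of Nr4a1 and Nr4a2 was lower (-0.96 and -0.71), and Rxrb was not called (-0.12 and 0.01).

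Genes known as Myc targets were higher at 8 h than at 2 h, 12 of the 13 measured with aldosterone and 13 of 13 with vehicle, and none was called lower (13 of 13 in each without vehicle 2 h replicate 1). For this and the network counts below, 29.2% of all genes were higher and 27.3% lower with aldosterone. With vehicle 26.6% were higher and 31.9% lower. Odc1, the first enzyme of polyamine synthesis, rose by 2.06 with aldosterone and by 1.76 with vehicle, and the nucleolar genes Nop56 (1.70 and 1.84) and Ncl (1.62 and 1.64) rose too. Myc RNA itself differed by 0.38 and 0.16 over the same hours, as given above, and neither was called with all pools. Without vehicle 2 h replicate 1 the vehicle difference was 0.32, and the aldosterone difference passed. Of the Myc network partners, 9 of 11 were measured, with 4 higher and 0 lower at 8 h against 2 h with aldosterone and 2 higher and 2 lower with vehicle. Without vehicle 2 h replicate 1 these counts were 4 higher and 1 lower with aldosterone and 2 higher and 1 lower with vehicle, and 2 partners were called higher for aldosterone against vehicle over the mean of the 3 times, where 0 were with all pools. Mxd4, a repressor that competes with Myc for its partner Max, was the 1 gene of the network called for aldosterone against vehicle at 8 h (7.68 with aldosterone and 6.61 with vehicle, log2 difference 1.07 ± 0.23, adjusted p = 0.0288). Myc at that time differed by -0.28 (interval -0.65 to 0.09). No Myc target was called for aldosterone at any of the 3 times.

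The members' patterns over the 18 samples were compared with those of all other genes, as a description in which the 3 times set most of the likeness. The pattern nearest to Nr4a1 was that of Fos (Pearson r = 0.996 over 18 samples), followed by Hsd17b11 (0.986) and Cavin2 (0.986). Nr4a2 was nearest to Atf3 (0.99), Ccn1 (0.986) and Mmd (0.983), and Egr1 to Hexim1 (0.975), Sema4a (0.968) and Atf3 (0.966). Egr2 was nearest to Zfand5 (0.964), Pcf11 (0.964) and Rian (0.962). Ier2 was nearest to Pde6d (0.954), Ier3 to Hbegf (0.913) and Myc to Pprc1 (0.863). Among Egr1, Egr2, Nr4a1 and Nr4a2 themselves r lay between 0.933 and 0.968, and each of these had an r between -0.79 and -0.69 with Ier3.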

How the data were processed

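RNA of 18 pools of mouse aorta was measured on Affymetrix arrays. The deposited log2 values were made by the authors with GCRMA, per the submitters' processing notes; its version and settings were not given in the sources used here. GCRMA corrects background by probe sequence and pulls dim probe sets to a floor, so low values and their changes are compressed. Of 22690 probe sets, 20380 have 1 gene in the array's annotation, 691 have several and 1606 none (64 of the probe sets are controls), and 20351 of those with 1 gene matched RefSeq. Probe sets with a log2 value above 4 in at least 3 samples were kept (11236), and each gene was represented by its probe set with the highest mean (7092 genes, 2704 of them with more than 1). limma 3.58.1 in R 4.3.3 fitted the 6 group means over all 18 samples with a trended prior, and p-values were adjusted over the 7092 genes by Benjamini-Hochberg at 0.05. The model was also run on simulated data, with independent normal noise for each gene and changes added in the vehicle 4 h group only. That simulation held no outlying array and no correlation between genes, and its outcome is not given here. Each further probe set of a member was tested in a fit of all probe sets kept.

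The members and the lists were chosen with earlier results of these data known. Named genes are the members, up to 4 genes of each list with the smallest p, the 3 genes nearest in pattern to each member, and 4 corticosteroid targets; other names are marked as chosen after their values were seen. The separate pools are biological replicates per the labels, and the number of arrays, 3 per group, limits the precision. The replicate numbers were not used to pair the samples in the main model. Alternatives were the prior, filter, probe set rule, renormalization, array weights, replicate block, groups in the fit, a floor, and each sample left out. The list counts and the within-group correlations without vehicle 2 h replicate 1, and the floor of 4 for Fosb and Fgf2, were alternatives chosen after seeing the data. No scan dates were used.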

Additional observations from a re-analysis of the deposited data

How the results depend on the processing

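Each member's value was recomputed under 29 alternatives (28 for the mean of the times and the F test, which need all groups), 18 of them leaving out 1 sample, and no called member changed direction. Leaving out 1 replicate at a time gave 0 to 1 members called for aldosterone against vehicle at 8 h (1 without vehicle 8 h replicate 1, Egr1) and 0 to 1 for the mean of the 3 times (1 without vehicle 8 h replicate 1, Egr1 at -0.35 and adjusted p = 0.0363, and 1 without vehicle 2 h replicate 3, Nr4a2 at -0.29 and adjusted p = 0.0438). Array weights gave 5 members called for vehicle 8 h against 4 h, against 3 in the main model. They added Egr2 (-0.67, adjusted p = 0.00172) and Ier2 (0.40, adjusted p = 0.042), and the cause was not tested. The shares of all genes called under the alternatives are not given here, so the added calls are not read as particular to the members. Egr2 at vehicle 8 h against 4 h also passed with the filter at 6 (adjusted p = 0.0483) and without vehicle 4 h replicate 3 (adjusted p = 0.0122). Myc at aldosterone 4 h against 2 h missed the threshold with no filter (adjusted p = 0.0599), and Ier2 at vehicle 8 h against 2 h missed it with only those groups in the model (0.0535). Nr4a2 at 2 h was 0.05 for aldosterone against vehicle with array weights and -0.36 without vehicle 2 h replicate 3. Over the alternatives, the adjusted p of Myc at 2 h lay between 0.16 and 0.91, and that of Ier3 between 0.15 and 0.91. With the replicate number as a block, the counts of members called were those of the main model in every comparison (0 for each aldosterone comparison, 6 for vehicle 4 h against 2 h and 7 for aldosterone 4 h against 2 h), and all 77 values of single members kept their direction and their side of the threshold. Samples with the same replicate number deviated from their group means with a mean correlation of -0.00083 over 45 pairs. For 7 of 18 samples the mean correlation with the other groups was highest for their own number among the 3 numbers. Egr3 and Nr4a3 were too dim for any difference to be read.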

Other observations

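Deviations from the group means, taken over the 18 samples after the effects of treatment and time were removed, were compared between members. Egr1 and Nr4a2, with r = 0.96 over all samples, had r = 0.06 within groups (0.11 over 17 samples without vehicle 2 h replicate 1), and Nr4a1 and Nr4a2 had 0.968 and -0.13, the second 0.26 without that sample. Within groups r was 0.73 for Egr2 and Nr4a1 (0.481 without that sample), 0.682 for Ier2 and Ier3 (0.653), whose courses over time ran opposite ways, and 0.637 for Egr1 and Myc (0.788). These last pairs had the highest within-group r of all member pairs and were picked for that. Egr2 and Myc had 0.0453 within groups over all samples and 0.711 without that sample. The samples share arrays and normalization across genes, and no p is given.

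The steepness of the falls differed among the members. Nr4a1 changed by -1.19 log2 units per hour between 2 and 4 h and by -0.692 per hour between 4 and 8 h with aldosterone, and by -1.12 and -0.729 with vehicle. Nr4a2 changed by -1.23 and then -0.341 per hour with aldosterone, and by -1.14 and -0.382 with vehicle. Egr2 changed by -0.747 and -0.227 per hour with aldosterone, and by -1.04 and -0.149 with vehicle. These are differences of group means, and rates between genes were not tested against each other.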
